A study of Mus musculus with 28 samples.

Results

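Scara5, which encodes a ferritin receptor, was described together with 9 other iron genes (Hamp, Hamp2, Tfrc, Tfr2, Fth1, Ftl1, Slc40a1, Slc11a2 and Trf) in liver and kidney of mice gavaged with nicotinamide mononucleotide (NMN), a precursor of NAD+, or with water. These were 10 of the 54446 genes in each count table, and each was found by its Ensembl identifier. Scara5 was chosen because it was high in the NMN livers of the 1340 mg/kg/d schedule, so in that comparison the 10 genes are given as values without a test. The other 9 were chosen for their known part in iron handling.

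The mice were male C57BL/6 animals (C57BL6J in the article) aged 8 weeks, and all were gavaged for 7 days. Of each organ, 4 libraries came from NMN mice and 4 from water mice of the 1340 mg/kg/d schedule, gavaged once daily, and 3 and 3 came from the 2680 mg/kg/d schedule, gavaged 2 times a day. The number of gavages changed with the dose, so the 2 cannot be told apart, and each NMN group was compared with the water group of its own schedule. Reads without a unique alignment made up 10.1% to 12.8% of the liver and 10.3% to 11.6% of the kidney libraries of the first schedule, against 13.4% to 14.5% and at least 18.9% of the second. The article names 2 sequencers without saying which libraries ran on which, so sequencer and schedule cannot be told apart where levels of both schedules are set side by side. Liver and kidney libraries may come from the same mice, which the labels do not tie together. The p-values measure the spread between the libraries of a group. A library held 12688324 to 33872983 reads assigned to genes. Levels are given as CPM (reads on a gene relative to the TMM-scaled library size) with the SD between libraries, and ± after a log2 fold change gives its SE. In bulk tissue, fewer cells that express a gene and less RNA per cell cannot be told apart.

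Iron travels in blood bound to transferrin (Trf), which cells take up through transferrin receptor 1 (Tfrc). Inside the cell, Slc11a2 moves iron out of endosomes, ferritin made of heavy (Fth1) and light (Ftl1) chains stores it, and ferroportin (Slc40a1) exports it. Hepatocytes secrete hepcidin (Hamp), which binds ferroportin and has it degraded. Hamp transcription is driven by bone morphogenetic protein (BMP) signals through Smad proteins, by transferrin saturation through Tfr2 and Hfe, and by interleukin 6 through Stat3. Mice carry a second hepcidin gene, Hamp2, beside Hamp. Iron regulatory proteins bind iron-responsive elements (IREs), hairpins in messenger RNA. They block translation from a 5′ UTR and protect Tfrc mRNA through its 3′ UTR, so transcript levels alone do not give the amount of ferritin or ferroportin protein.

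The IREs are shown because they are the sequences through which several of these transcripts read cellular iron. The annotated UTRs (GENCODE M21, build GRCm38) were searched for a C, 5 paired bases, the loop CAGTGN and 5 paired bases, with at least 3 of 5 pairs below. Such a match was present in the 5′ UTR of 9 of 21901 coding genes (0.0411%) and in the 3′ UTR of 36 (0.164%). Of the 10 genes, Fth1, Ftl1 and Slc40a1 held it in the 5′ UTR and Tfrc held 4 copies in the 3′ UTR. The 27-base sites follow, read along the transcript 5′ to 3′, with the loop in capitals.
Fth1 5′ UTR, chr19:9982733-9982759, plus strand: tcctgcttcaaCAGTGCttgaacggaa
Ftl1 5′ UTR, chr7:45459780-45459806, minus strand: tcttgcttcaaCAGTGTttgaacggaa
Slc40a1 5′ UTR, chr1:45925466-45925492, minus strand: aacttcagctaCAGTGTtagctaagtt
Tfrc 3′ UTR, chr16:32631220-32631246, plus strand: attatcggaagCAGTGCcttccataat
Tfrc 3′ UTR, chr16:32631599-32631625, plus strand: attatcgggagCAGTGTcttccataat
Tfrc 3′ UTR, chr16:32631664-32631690, plus strand: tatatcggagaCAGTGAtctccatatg
Tfrc 3′ UTR, chr16:32631711-32631737, plus strand: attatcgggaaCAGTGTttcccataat
The pattern had no match in the annotated UTRs of the other 6 genes, which says only that these letters were not found there.

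The promoters of Hamp and Hamp2 are shown because the 2 genes gave different values in the livers of the 2680 mg/kg/d schedule. The genes lie on the minus strand of chromosome 7, Hamp at 30942368 to 30944032 and Hamp2 at 30922372 to 30924681. RefSeq (GRCm38.p6) gave the promoter sequences of 6 of the 10 genes, all but Scara5, Slc40a1, Slc11a2 and Trf. An aligned stretch of 115 bases, from 142 to 28 bases before the Hamp start site and from 139 to 25 before that of Hamp2 as RefSeq gives them, follows with the BMP response element core GGCGCC and the STAT site TTCTTGGAA in capitals.
Hamp, chr7:30944057-30944171, minus strand: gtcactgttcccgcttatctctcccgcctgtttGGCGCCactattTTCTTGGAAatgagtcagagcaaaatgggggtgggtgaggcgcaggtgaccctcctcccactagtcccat
Hamp2, chr7:30924206-30924320, minus strand: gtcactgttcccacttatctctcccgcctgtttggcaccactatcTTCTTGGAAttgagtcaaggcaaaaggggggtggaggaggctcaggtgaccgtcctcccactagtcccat
GENCODE M21 has the Hamp2 gene start farther upstream, so by that annotation the Hamp2 stretch lies inside the gene. Of the 115 bases 104 were identical (90.4%). Of the 11 substitutions, 1 fell in the BMP core (G37A, counted from 1 at the first base printed, Hamp base first), so GGCGCC stood in the Hamp stretch and not in that of Hamp2, and TTCTTGGAA stood in both. On either strand, GGCGCC was present in 11.9% and TTCTTGGAA in 0.417% of 32851 promoter windows of 300 bases. Whether these letters bear on the expression values was not tested.

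The first comparison asks where the 10 genes are expressed without NMN. In the water mice gavaged 2 times a day, Scara5, Tfr2, Trf, Ftl1 and Slc40a1 were higher in liver, and Fth1, Tfrc and Slc11a2 in kidney. This was by edgeR's quasi-likelihood test at an adjusted p under 0.05. Hamp and Hamp2 were present in liver and had 0 counts in these kidneys, so a lower limit is given for them below instead of a test. The organs differed widely, since 70.5% of all 14844 genes tested passed, 31.0% higher in liver and 39.5% higher in kidney. Per kb of exon, the most abundant of the 10 in liver were Hamp (2451 ± 824.3 CPM per kb, SD, n = 3), Ftl1 (1348 ± 182.5), Trf (733.5 ± 94.8) and Fth1 (526.4 ± 34.8). Scara5 was the least abundant of the 10 in liver, at 1.28 ± 0.517 CPM per kb. In kidney Fth1 (1263 ± 40.1 CPM per kb) and Ftl1 (740.1 ± 105.8) led, and Slc11a2 (15.8 ± 4.24) and Tfrc (12.6 ± 3.21) came next. The water libraries at 1340 mg/kg/d gave the same split between organs in mean level, with Ftl1 at 2376 ± 302.2 CPM per kb in liver and 1618 ± 270.6 in kidney (n = 4).

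**Figure D1:**
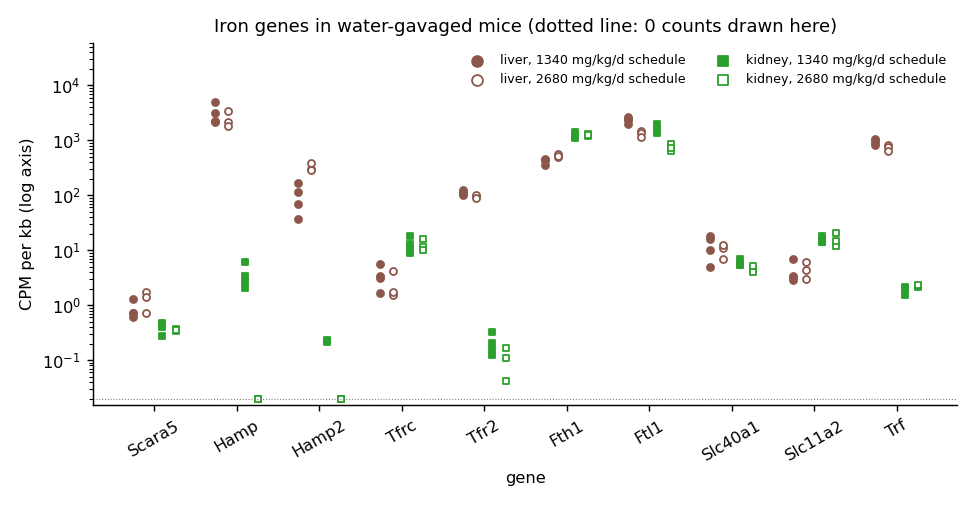
Level of each of the 10 genes in the water libraries, in CPM per kb of exon on a log axis, with 1 point per library. Liver points (circles) lie above kidney points (squares) for Hamp, Hamp2, Tfr2 and Trf in both schedules, and the dotted line marks libraries with 0 counts.

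The largest liver preferences were those of the hepatocyte genes. Hamp and Hamp2 had 0 counts in all 3 kidney libraries of these water mice. Taking a limit of 3 counts per library, 0.183 CPM at most, Hamp was at least 5480-fold and Hamp2 at least 1040-fold higher in liver. The log2 difference between liver and kidney was 10.65 ± 0.26 (SE) for Tfr2 (adjusted p = 4.406e-11) and 9.24 ± 0.18 for Trf (adjusted p = 1.501e-11). Scara5 was higher in liver by 2.70 ± 0.33 on the log2 scale (adjusted p = 2.599e-05), Slc40a1 by 2.0 ± 0.20 (adjusted p = 5.12e-06) and Ftl1 by 1.72 ± 0.15 (adjusted p = 1.444e-06). Fth1 was lower in liver by a log2 difference of -0.41 ± 0.11 (adjusted p = 0.006091). Tfrc (-1.48 ± 0.42, adjusted p = 0.01654) and Slc11a2 (-0.96 ± 0.26, adjusted p = 0.007623) were lower in liver too, but without water replicate 3 of the liver their adjusted p was 0.09475 and 0.07593.

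The kidney libraries of the 1340 mg/kg/d schedule held Hamp at 0.846 to 2.94 CPM in all 8 libraries, whereas those of the 2680 mg/kg/d schedule held it at 0 in 5 and 0.0299 CPM in the other. The log2 fold change of NMN over water in the first schedule was 0.32 ± 0.41 for Hamp (adjusted p = 0.8679). There the mean kidney level of Hamp was 0.125% of the mean liver level. Of 5 other hepatocyte transcripts, Alb (albumin) stood at 0.123% there, Apoa1 at 0.118% and Fgb at 0.131%, whereas Ttr (transthyretin) stood at 1.61% and Serpina1a at 1.74%. In the second schedule the shares were 0.000406% for Hamp, 0.0113% for Alb, 0.0136% for Apoa1 and 0.0341% for Fgb, but 1.59% for Ttr and 2.06% for Serpina1a, so not all of them were lower. Trf kept 0.248% and 0.394% of its liver level, and Tfr2 0.192% and 0.134%. Whether liver RNA is part of the kidney values of Hamp, Tfr2 and Trf was not tested.

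Scara5 (chromosome 14, 65666403 to 65764826, plus strand) encodes a scavenger receptor of class A that takes up ferritin. In the livers of the 1340 mg/kg/d schedule it stood at 7.98, 4.39, 4.31 and 3.78 CPM in the water libraries and at 29.4, 18.3, 15.2 and 23.8 CPM in the NMN libraries. Every NMN library was above every water library, and the fitted log2 fold change was 2.09. The gene was taken from this comparison, where 0.0161% of all 12449 genes were past an adjusted p of 0.05 in edgeR. Scara5 is the 1 of the 10 among them, and since its values chose it nothing is read from this. Leaving out each library in turn gave log2 fold changes from 1.90 to 2.38, and nothing is read from this range either. The values rest on 56 to 392 reads per library.

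In the livers of the 2680 mg/kg/d schedule Scara5 stood at 10.4, 4.32 and 8.76 CPM with water and at 10.7, 13.5 and 3.31 CPM with NMN. The groups overlapped, and the lowest of the 6 libraries was an NMN library. The log2 fold change was 0.23 ± 0.50 (SE, adjusted p = 0.8238), with a 95% interval from -0.75 to 1.21. Its sign turned without water replicate 2 (-0.06) or NMN replicate 2 (-0.15). In kidney Scara5 stood at 2.94, 1.70, 2.47 and 2.56 CPM with water and at 1.81, 3.40, 3.70 and 3.22 with NMN in the 1340 mg/kg/d schedule. The groups overlapped there (log2 fold change 0.33 ± 0.30, adjusted p = 0.8014). The kidney values of the 2680 mg/kg/d schedule were 2.26, 2.11 and 2.16 CPM with water and 2.44, 3.11 and 2.51 with NMN. These groups did not overlap, but the log2 fold change of 0.30 ± 0.22 did not pass (adjusted p = 0.6674), and 17.2% of all genes tested there had groups that did not overlap. In these kidneys the 9 stellate cell markers summed to 148.9 CPM with water and 185.0 with NMN, with 9 of 9 log2 fold changes above 0 (median 0.30) and Ecm1 the most abundant. The 12 fibroblast markers summed to 209.2 and 234.1 CPM, with 9 above 0 (median 0.20) and Dcn the most abundant. None of these passed in edgeR or DESeq2, with 1 stellate cell marker at an unadjusted p under 0.05, and their part in the Scara5 values was not tested.

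**Figure D2:**
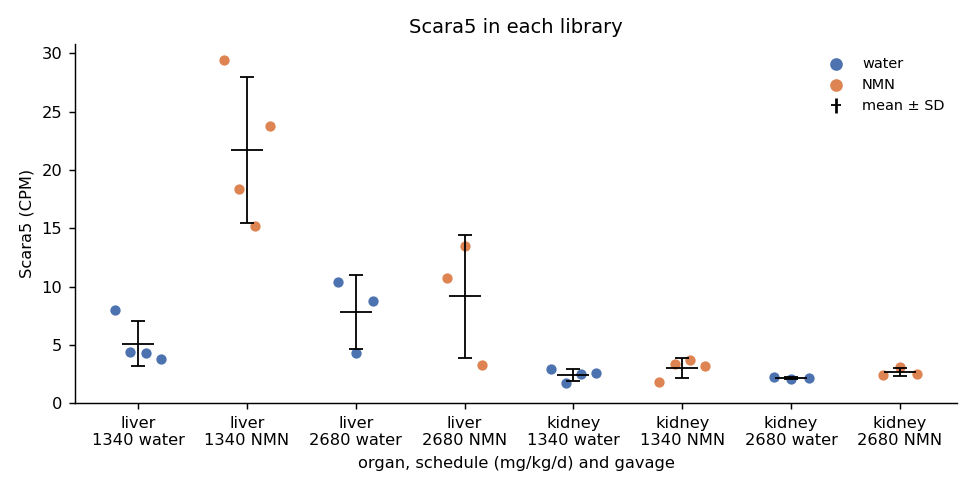
Scara5 level in CPM in each of the 28 libraries, grouped by organ, schedule and gavage, with 1 point per library and the mean ± SD of a group in black. The 4 NMN livers of the 1340 mg/kg/d schedule sit between 15.2 and 29.4 CPM, above all 24 other libraries.

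In order of the mean, Scara5 was at 21.7 CPM in the NMN livers of the 1340 mg/kg/d schedule, at 9.17 and 7.83 in the NMN and water livers of the 2680 mg/kg/d schedule, and at 5.12 in the water livers of the 1340 mg/kg/d schedule. The kidney groups lay between 2.17 and 3.03 CPM. Among neighbours in this order, only the first and second groups, and the lowest liver and highest kidney group, did not overlap. The water livers of both schedules overlapped.

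The other class A scavenger receptors, which bind modified lipoproteins, collagen-like ligands and bacteria, were measured beside Scara5. In the livers of the 2680 mg/kg/d schedule none of Scara3, Msr1, Marco and Colec12 passed in edgeR, with 3 of the 4 at an unadjusted p under 0.05 and 1 (Colec12) passing in DESeq2. Of all genes in these livers, 24.6% had an unadjusted p under 0.05 and 11.6% passed in DESeq2. Of the 4, 2 were higher and 2 lower in the NMN livers (median log2 fold change -0.17). Colec12 averaged 63.3 ± 11.2 CPM with water and 38.1 ± 12.9 with NMN, without overlap. The 8 Kupffer cell and macrophage markers summed to 255.5 CPM with water and 205.3 with NMN in these livers. Of these markers 7 of 8 had a log2 fold change below 0 (median -0.34), and none passed in edgeR. Their part in the values of these receptors was not tested.

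Since Scara5 is known in fibroblast-like cells, markers of other liver cells were set beside it. In the 1340 mg/kg/d livers the summed level of 9 stellate cell markers was 277.8 CPM with water and 271.0 with NMN. That of 12 fibroblast markers was 181.2 and 171.6 CPM. Above 0 were the log2 fold changes of 6 of 9 stellate cell markers (median 0.09). The same held for 3 of the 10 fibroblast markers with enough counts (median -0.22). The 8 endothelial markers, of which Clec4g was the most abundant, summed to 87.2 to 134.7 CPM in the water libraries and to 132.4 to 149.0 CPM in the NMN libraries. None of the 8 was at 0, and all 8 had a log2 fold change above 0, with a median of 0.34 against a median of -0.0027 over all genes tested. The 8 Kupffer cell and macrophage markers summed to 165.0 CPM and 143.4 CPM, with 2 of 8 log2 fold changes above 0 (median -0.22). The part of endothelial cells in the Scara5 values was not tested.

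Hamp2, the second hepcidin gene, was the only 1 of the 10 genes that passed in edgeR in the 3 comparisons of NMN with water that were tested. This was in the livers of the 2680 mg/kg/d schedule. It stood at 174.9, 226.6 and 171.7 CPM with water and at 67.4, 83.6 and 96.8 CPM with NMN. All 3 NMN libraries were below all 3 water libraries, as for 16.0% of all genes tested. Hamp2 fell by 1.21 on the log2 scale (SE 0.18, adjusted p = 0.004041), which is 2.31-fold. In these livers 7 of 8 hepatocyte markers also had a log2 fold change below 0 (median -0.33). Their part in the Hamp2 values was not tested. Of all 12477 genes tested in these livers, 7.08% passed and 4.03% passed as lower with NMN, so 1 of 10 is near that background. DESeq2 called 2 of the 10 there, Hamp2 and Tfrc (11.6% of all genes), and 3 had an unadjusted p under 0.05 (24.6% of all genes), so these counts are near the background too. The call was kept with each library left out in turn, with a highest adjusted p of 0.02833, and was lost when all 14 liver libraries shared 1 fit (log2 fold change -1.20, adjusted p = 0.09613).

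Hamp itself stood at 888.2, 1386 and 740.9 CPM with water and at 2081, 1315 and 942 CPM with NMN in the same livers. The groups overlapped, and the log2 fold change of 0.53 ± 0.33 did not pass (adjusted p = 0.3677, 95% interval -0.12 to 1.17). Hamp2 therefore made up a different part of the reads on both genes, 16.5%, 14.1% and 18.8% in the water libraries and 3.14%, 5.98% and 9.32% in the NMN libraries. The 2 sets did not overlap. The reads of such near-identical copies may be shared between them, and 13.4% to 14.5% of the reads of these libraries had no unique alignment. Exons of Hamp2 also overlap those of Gm44662 on the other strand by 89 bases, which counting without strand cannot tell apart.

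In the livers of the 1340 mg/kg/d schedule Hamp2 stood at 21.7, 97.2, 41.3 and 67.3 CPM with water and at 29.2, 45.6, 40.1 and 30.04 CPM with NMN. The NMN values lay inside the range of the water values, and the log2 fold change was -0.65. Hamp stood at 1278, 898.9, 906.7 and 2084 CPM with water and at 1470, 976.7, 1039 and 1849 CPM with NMN, with a log2 fold change of 0.05. Hamp2 made up 1.67%, 9.76%, 4.36% and 3.13% of the reads on both genes with water. With NMN its shares were 1.95%, 4.46%, 3.71% and 1.6%, so the sets overlapped here. Every water library of the 2680 mg/kg/d schedule had more Hamp2 than any of the 1340 mg/kg/d schedule, and this was not tested.

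Transferrin receptor 1, the entry gate for transferrin iron, had the highest log2 fold change among the 10 genes in the 2680 mg/kg/d livers. Tfrc stood at 26.3, 9.45 and 10.7 CPM with water and at 40.5, 31.2 and 55.7 CPM with NMN. All 3 NMN libraries were above all 3 water libraries, as for 13.8% of all genes tested. Groups did not overlap for 2 of the 10 genes there (Hamp2 and Tfrc), against 29.8% of all genes in either direction. The log2 fold change was 1.45 ± 0.41 (2.74-fold, 95% interval 1.56 to 4.79), and it did not pass in edgeR (adjusted p = 0.07897). It passed in DESeq2 (adjusted p = 0.000482) and without water replicate 1, the highest water library (log2 fold change 2.07, adjusted p = 0.005563). In the 1340 mg/kg/d livers Tfrc stood at 34.9, 10.5, 20.7 and 19.6 CPM with water and at 18.4, 22.2, 25.9 and 19.5 with NMN. These groups overlapped, with a log2 fold change of 0.01. In kidney Tfrc was between 41.9 and 114.5 CPM in all 14 libraries, and its log2 fold change was -0.04 ± 0.36 (adjusted p = 0.9861) in the 1340 mg/kg/d schedule and -0.13 ± 0.18 (adjusted p = 0.8438) in the 2680 mg/kg/d schedule.

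Tfr2, the hepatocyte sensor of loaded transferrin, stood at 432.8, 470.5, 543.2 and 480.3 CPM with water and at 635.3, 557.1, 548.9 and 628.8 CPM with NMN in the 1340 mg/kg/d livers. Every NMN library was above every water library, with a log2 fold change of 0.30. Beside Scara5 it was the only 1 of the 10 genes with such a gap there, which 3.53% of all genes tested had. Tfr2 in the 2680 mg/kg/d livers stood at 416.4, 440.1 and 386.4 CPM with water and at 409.6, 400.9 and 354.2 with NMN, and the groups overlapped (log2 fold change -0.09 ± 0.13, adjusted p = 0.7101). In kidney it rested on 3 to 34 reads per library, and its log2 fold change was 0.46 ± 0.44 (adjusted p = 0.8083) and 0.49 ± 0.62 (adjusted p = 0.8166).

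**Figure D3:**
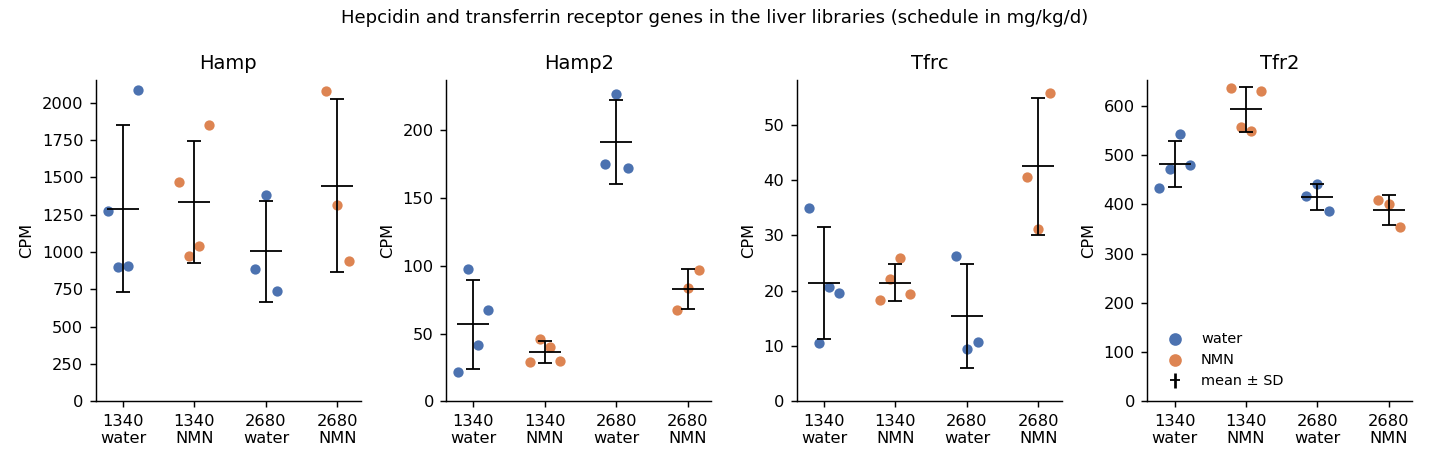
Levels in CPM of Hamp, Hamp2, Tfrc and Tfr2 in the 14 liver libraries, by schedule and gavage, with 1 point per library and the mean ± SD in black. In the 2680 mg/kg/d schedule the NMN points lie below the water points for Hamp2 and above them for Tfrc, whereas those of Hamp overlap.

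The ferritin genes were among the most abundant of the 10 in both organs, and neither passed in edgeR in a comparison of NMN with water. In kidney of the 2680 mg/kg/d schedule the light chain Ftl1 stood at 1146, 868.1 and 960.7 CPM with water and at 853, 688.9 and 652 CPM with NMN. All NMN libraries were below all water libraries, as for 8.68% of all genes tested there. The log2 fold change of -0.44 ± 0.13 did not pass in edgeR (adjusted p = 0.2042) and passed in DESeq2 (adjusted p = 0.03876). Without NMN replicate 1 it passed in edgeR too (-0.57, adjusted p = 0.0263). Over all libraries left out in turn it ranged from -0.57 to -0.33, with an edgeR adjusted p of up to 0.5629. In kidney of the 1340 mg/kg/d schedule Ftl1 ranged from 1802 to 2663 CPM with water and from 1206 to 2041 with NMN, with overlap (log2 fold change -0.37 ± 0.17, adjusted p = 0.5643), and it passed there with no filter on low counts (adjusted p = 0.0385). The 6 proximal tubule markers, mostly Kap, had log2 fold changes below 0 too, 6 of 6 at 1340 mg/kg/d (median log2 fold change -0.37) and 5 of 6 at 2680 mg/kg/d (median -0.38), and their part in the kidney values of Ftl1 was not tested. In liver its log2 fold change was -0.20 in the 1340 mg/kg/d schedule and 0.00 ± 0.14 in the 2680 mg/kg/d schedule (adjusted p = 0.9965). Ferritin has many processed pseudogenes, and exons of Ftl1 overlap Gm10252 and Gm22133, so its reads are less certain than those of the receptors.

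The heavy chain Fth1 had log2 fold changes of -0.02 in the 1340 mg/kg/d livers and -0.06 ± 0.13 in the 2680 mg/kg/d livers (adjusted p = 0.8243). In kidney they were -0.16 ± 0.10 (adjusted p = 0.6848) and -0.12 ± 0.10 (adjusted p = 0.7142). Its kidney groups averaged between 3804 and 4382 CPM and its liver groups between 1449 and 1826 CPM.

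Ferroportin and the endosomal importer did not pass in any of these comparisons. Slc40a1 ranged from 44.8 to 165.4 CPM with water and from 53.7 to 110.1 with NMN in the 1340 mg/kg/d livers, and from 63.7 to 111.1 and from 57.4 to 144.8 CPM in the 2680 mg/kg/d livers (log2 fold change 0.17 ± 0.34, adjusted p = 0.8025). Slc11a2 ranged from 18.6 to 43.7 CPM with water and from 19.3 to 30.8 with NMN in the 1340 mg/kg/d livers. Its range in the 2680 mg/kg/d livers was from 19.2 to 38.6 CPM with water and from 21.3 to 38.1 with NMN (log2 fold change 0.05 ± 0.27, adjusted p = 0.9381). In kidney the log2 fold change of Slc40a1 was -0.07 ± 0.12 (adjusted p = 0.9123) and -0.10 ± 0.17 (adjusted p = 0.8829). Kidney Slc11a2 averaged 97.6 CPM with water and 80.6 with NMN in the 1340 mg/kg/d schedule (log2 fold change -0.28 ± 0.12, adjusted p = 0.5356) and 100.2 and 82.2 CPM in the 2680 mg/kg/d schedule (-0.29 ± 0.21, adjusted p = 0.6863). The groups of both genes overlapped in all 4 comparisons. Exons of Slc11a2 overlap those of Gm5475 on the other strand by 402 bases.

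Transferrin itself was lower with NMN in the 2680 mg/kg/d livers, without passing. Trf stood at 2715, 2496 and 2094 CPM with water and at 1814, 2181 and 1759 with NMN, with 1 NMN library inside the water range (log2 fold change -0.34 ± 0.14, adjusted p = 0.1683). The summed level of 8 hepatocyte markers, mostly Alb, was 170200, 165500 and 157300 CPM with water and 119200, 129300 and 132200 with NMN in these livers, and 7 of the 8 had a log2 fold change below 0. One of them passed, Ttr (log2 fold change -0.97, adjusted p = 0.00227). The part of that in the values of Trf, or of Alad and Slc46a1 below, was not tested. In kidney of the 2680 mg/kg/d schedule Trf stood at 6.98, 7.28 and 7.62 CPM with water and at 8.23, 9.19 and 12.1 with NMN, with all NMN libraries above (log2 fold change 0.44 ± 0.17, adjusted p = 0.3382). In kidney of the 1340 mg/kg/d schedule the groups overlapped (0.40 ± 0.21, adjusted p = 0.5918). Of the hepatocyte markers tested in kidney, 5 of 6 at 2680 mg/kg/d (median log2 fold change 0.41) and 6 of 8 at 1340 mg/kg/d (median 0.25) were above 0 as well, and their part in kidney Trf was not tested. Exons of Trf overlap those of Gm20425 on the same strand by 2108 bases, so part of its reads cannot be assigned with certainty.

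**Figure D4:**
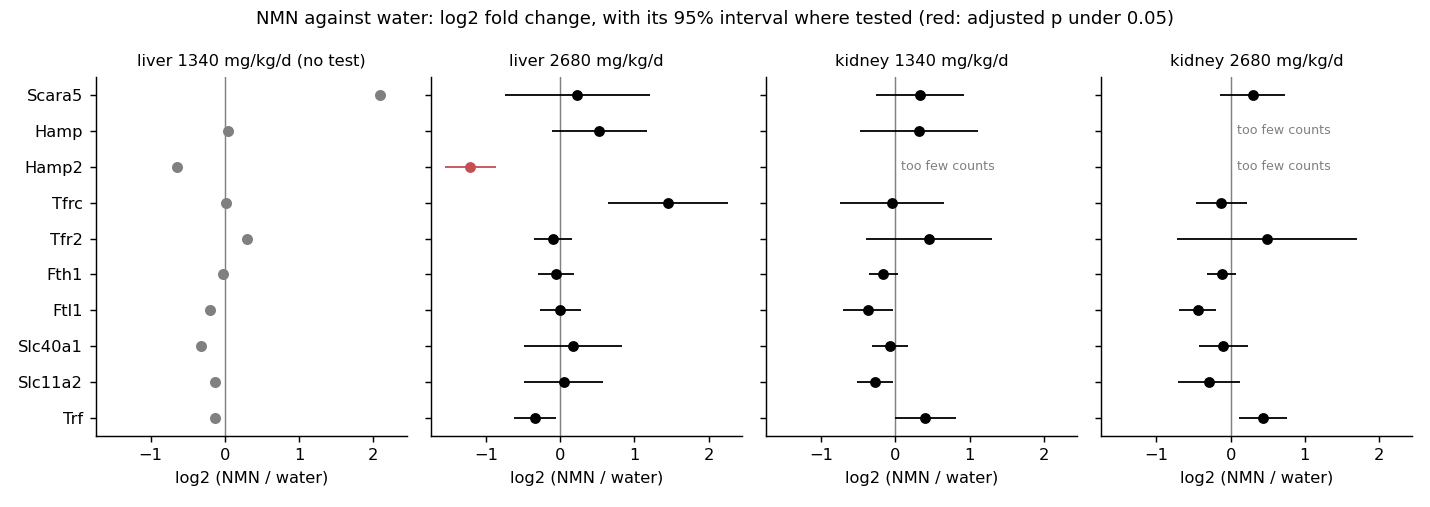
Log2 fold change of NMN over water for the 10 genes in the 4 comparisons, with the 95% interval where the comparison was tested. Hamp2 in the 2680 mg/kg/d livers (red) is the only tested value past an adjusted p of 0.05, and Hamp2 in both kidney panels and Hamp in the 2680 mg/kg/d kidney had too few counts for a test.

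In kidney, 9 of the 10 genes had enough counts for a test in the 1340 mg/kg/d schedule and 8 in the 2680 mg/kg/d schedule. None passed in edgeR, where 0.120% and 0.400% of all genes did. At an unadjusted p under 0.05 there was 1 in the first (Slc11a2) and 2 in the second (Ftl1 and Trf), against 8.94% and 11.1% of all genes. DESeq2 called 0 and 1 (Ftl1), against 1.26% and 1.53% of all genes. In the 2680 mg/kg/d schedule 3 of the 10 had groups that did not overlap (Scara5, Ftl1 and Trf), against 17.2% of all genes tested (8.48% above and 8.68% below), and in the 1340 mg/kg/d schedule none did, against 5.12%. The difference between the schedules in the kidney was tested as an interaction over 14 libraries. It passed for none of the 8 genes with enough counts in both schedules, in edgeR or DESeq2, with 0 at an unadjusted p under 0.05. Hamp also entered this fit, but through the 1340 mg/kg/d kidneys alone, so nothing is read from its value. Of all genes, 0.00625% passed in edgeR and 0.0787% in DESeq2, and 4.62% had an unadjusted p under 0.05. The NMN libraries held 13174264 to 14006288 reads and the water libraries 15354270 to 15696435 in the 1340 mg/kg/d kidneys, against 22922994 to 33872983 and 16358886 to 18983689 in the 2680 mg/kg/d kidneys.

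Whether the NMN effect differed between liver and kidney was tested over the 12 libraries of the 2680 mg/kg/d schedule, where 2.65% of all 15811 genes passed. None of the 8 genes with enough kidney counts for a test did in edgeR. Of these, Tfrc and Trf had an unadjusted p under 0.05 and were called by DESeq2, against 19.4% and 7.72% of all genes. The liver minus kidney difference in log2 fold change was 1.56 ± 0.48 for Tfrc (adjusted p = 0.1016) and -0.80 ± 0.23 for Trf (adjusted p = 0.07714). For Scara5 it was -0.08 ± 0.60 (adjusted p = 0.9941), with a 95% interval from -1.24 to 1.09. Hamp and Hamp2 have no usable kidney value for this difference. They entered the fit through their liver counts alone, so nothing is read from their values.

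The genes that control Hamp gave context for the hepcidin values. Of 21 genes of the BMP, Smad, Tfr2 and Stat3 routes, 20 were tested in the 2680 mg/kg/d livers, of which 18 were higher and 2 lower with NMN. Their median log2 fold change was 0.42, against 0.0045 over all genes tested. The genes were listed without regard to whether they raise or lower Hamp, so this count gives no direction for Hamp. At an unadjusted p under 0.05 there were 9 (24.6% of all genes), and DESeq2 called 3, Bmpr1a, Id1 and Smad4 (11.6% of all genes). Id1 had 1.01 ± 0.27 and did not pass in edgeR (adjusted p = 0.05083). Passing in edgeR were 2, both higher, where 3.05% of all genes passed as higher. Smad4, the shared Smad that carries BMP signals to the nucleus, rose from 16.8, 20.96 and 25.9 CPM with water to 34.6, 34.4 and 53.8 with NMN (log2 fold change 0.95 ± 0.22, adjusted p = 0.03001). Bmpr1a, a type I BMP receptor, rose from 25.1, 25.3 and 25.9 CPM to 42.7, 33.6 and 42.5 CPM (0.64 ± 0.15, adjusted p = 0.03424). Both calls were lost without single libraries, with an adjusted p of up to 0.1243 and 0.1392. Among the others, Bmp6, the main BMP ligand of iron sensing, had 0.49 ± 0.32 (adjusted p = 0.3828), Hfe 0.15 ± 0.14 (adjusted p = 0.5439) and Hjv, a BMP co-receptor, 0.23 ± 0.14 (adjusted p = 0.3599). Tmprss6, the protease that cleaves Hjv, had -0.35 ± 0.12 (adjusted p = 0.111), with all NMN libraries below water. Bmpr1a shares exon sequence with Gm17110. Endothelial cells of the liver make Bmp6, and the 8 endothelial markers summed to 179.7 CPM with water and 200.2 with NMN in these livers. The part of that in these values was not tested.

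Iron and heme transporters did not move one way in the 2680 mg/kg/d livers. Of 24 genes, 20 were tested, 10 were higher and 10 lower, and the median log2 fold change was 0.04. DESeq2 called 4 (Flvcr1, Lcn2, Slc25a37 and Slc46a1), against 11.6% of all genes, and 7 had an unadjusted p under 0.05, against 24.6%. Flvcr1 (log2 fold change 1.34 ± 0.42, edgeR adjusted p = 0.07955) and Slc25a37 (0.61 ± 0.18, 0.06305) were higher with NMN, without overlap. Slc46a1, a folate transporter that also carries heme, was the only one to pass in edgeR, which is no more than the 7.08% of all genes that did. It fell from 53.4, 50.5 and 51.1 CPM with water to 27.1, 37.5 and 26.3 with NMN (log2 fold change -0.77 ± 0.17, adjusted p = 0.02368). Its kidney log2 fold change was 0.07 ± 0.10, and the difference between the organs was -0.85 ± 0.20 (adjusted p = 0.04027). Leaving out single libraries gave adjusted p-values of up to 0.1115 for the liver and 0.111 for the difference. Hp, which binds free hemoglobin, had 0.36 ± 0.18 (adjusted p = 0.2406), Hpx, which binds heme, 0.10 ± 0.16 (adjusted p = 0.7566), Cp, the ferroxidase ceruloplasmin, -0.28 ± 0.13 (adjusted p = 0.2265), and Slc39a14, a hepatocyte importer of free iron, -0.03 ± 0.19 (adjusted p = 0.9501). Lcn2, which binds bacterial iron carriers and is an acute phase gene, had the lowest value, -2.62 ± 0.78 (adjusted p = 0.1227), and ranged from 41.1 to 166.0 CPM with water and from 7.03 to 24.3 with NMN.

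Among the iron lists, the lowest log2 fold change that passed in these livers was in heme synthesis. Of 12 genes tested in these livers, 5 were higher and 7 lower, with a median log2 fold change of -0.09, and 2 fell, where 4.03% of all genes passed as lower. Alas2, the erythroid form of the first enzyme, fell from 86.6, 107.5 and 104.2 CPM to 34.9, 33.8 and 21.9 CPM (log2 fold change -1.72 ± 0.20, adjusted p = 0.001213). Alad, the second enzyme, fell from 180.6, 174.9 and 146.3 CPM to 53.5, 97.4 and 81.6 CPM (-1.11 ± 0.21, adjusted p = 0.0133), and without water replicate 2 its adjusted p was 0.06395. The globins, which mark red cells, summed to 27.5, 25.9 and 10.6 CPM with water and to 7.63, 9.75 and 61.8 CPM with NMN. The 2 lowest and the highest sums were those of NMN libraries, so the order of the group means rests on NMN replicate 3, and the part of red cells in the Alas2 and Alad values was not tested. Epb42, a red cell membrane gene, had 0 counts in every liver library. Exons of Alas2 overlap those of Apex2 on the other strand. In the 1340 mg/kg/d livers, the log2 fold changes were -0.62 for Alas2 and -0.34 for Alad.

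Iron storage and sensing and iron-sulfur cluster assembly gave no call in the 2680 mg/kg/d livers in edgeR or DESeq2. Of 10 storage and sensing genes 5 were higher and 5 lower, with 3 at an unadjusted p under 0.05, where 24.6% of all genes were. Hmox1, which breaks down heme, had 0.64 ± 0.28 (adjusted p = 0.1921), Ncoa4, the ferritin cargo receptor, 0.03 ± 0.18 (adjusted p = 0.938), and the IRE-binding proteins Aco1 and Ireb2 -0.24 ± 0.12 (adjusted p = 0.2602) and 0.30 ± 0.19 (adjusted p = 0.3717). Fbxl5, which marks Ireb2 for degradation, had -0.03 ± 0.18 (adjusted p = 0.9434). Of 23 iron-sulfur genes 5 were higher and 18 lower, with a median of -0.18 and 3 at an unadjusted p under 0.05, which is a lower share than over all genes.

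**Figure D5:**
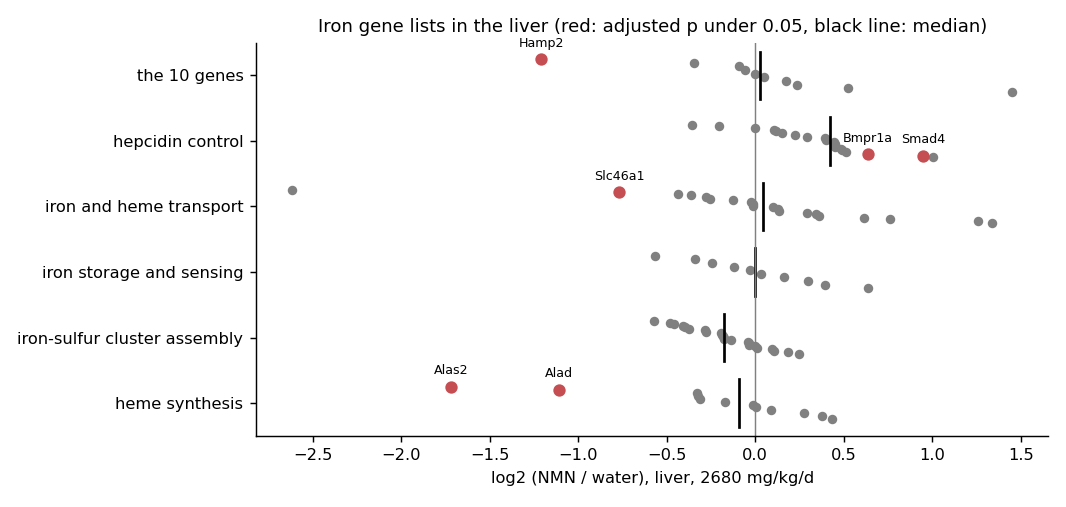
Log2 fold change of NMN over water in the 2680 mg/kg/d livers for every tested gene of the 10 genes and the iron lists, with 1 point per gene and the median as a black line. Genes past an adjusted p of 0.05 are red and named, and the hepcidin control list has its median at 0.42.

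In kidney the iron lists gave 1 call in edgeR at 1340 mg/kg/d (0.120% of all genes) and none at 2680 mg/kg/d (0.400% of all genes). At 1340 mg/kg/d 5 of 22 transport genes had an unadjusted p under 0.05 (8.94% of all genes), and at 2680 mg/kg/d 6 of 22 did (11.1% of all genes). Slc39a14 was in both counts with opposite signs and no overlap of its groups. Its log2 fold change was 0.57 ± 0.13 at 1340 mg/kg/d (edgeR adjusted p = 0.09719) and -0.44 ± 0.12 at 2680 mg/kg/d (0.1947). The interaction of schedule and NMN did not pass for it in edgeR (-1.01 ± 0.20, adjusted p = 0.2768) but was called by DESeq2, which called 0.0787% of all genes there. At 1340 mg/kg/d DESeq2 called Cp, Slc39a14 and, of the hepcidin control genes, Id1 (1.26% of all genes). At 2680 mg/kg/d DESeq2 called Lrp2 and, of the heme genes, Alad (1.53% of all genes). Kidney Alad had -0.37 ± 0.08 there (edgeR adjusted p = 0.06337, DESeq2 adjusted p = 0.009151), with all NMN libraries below water. Cp rose in the 1340 mg/kg/d kidneys from 24.6, 38.1, 32.9 and 30.5 CPM to 44.6, 54.7, 51.1 and 52.1 CPM (log2 fold change 0.68 ± 0.12, adjusted p = 0.03926). The call was lost without the robust option (adjusted p = 0.07273), with counts thinned to the smallest library (0.05232) and without single libraries (up to 0.178). Exons of Cp overlap Hps3 on the other strand by 108 bases. In the 2680 mg/kg/d kidneys Cp had 0.32 ± 0.14 (adjusted p = 0.4363). Lrp2 (megalin), which takes up filtered transferrin and ferritin in the proximal tubule, had -0.06 ± 0.13 (adjusted p = 0.9228) in the first schedule and -0.29 ± 0.09 (adjusted p = 0.2192) in the second, with all NMN libraries below water in the second. Hmox1 ranged from 10.6 to 663.2 CPM in the NMN kidneys of the 1340 mg/kg/d schedule and from 34.5 to 104.9 CPM with water. The 6 proximal tubule markers summed to 34540 CPM with water and 26370 with NMN in the first schedule and to 31220 and 24150 CPM in the second. Of these, Miox passed in the second schedule (log2 fold change -0.82, adjusted p = 0.01211), but not without water replicate 3 (-0.80, adjusted p = 0.1242). Whether that bears on the kidney values of Lrp2, Slc11a2, Ftl1 and the other iron genes was not tested.

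The genes most like Scara5 were sought over the 14 liver libraries among 11981 genes, by Pearson's r of log2 CPM after taking out the mean of each schedule. This uses the libraries that chose Scara5 and is a description. The 5 highest were Tmed8 (r = 0.808), Slc25a28 (0.801), Ppm1f (0.783), Inpp5e (0.770) and Zfp369 (0.758). Slc25a28 is a mitochondrial iron importer. Within the 1340 mg/kg/d libraries its r was 0.847 and within the 2680 mg/kg/d libraries 0.653. In the latter, r was 0.651 for Tmed8, 0.388 for Ppm1f, 0.643 for Inpp5e and 0.403 for Zfp369. Slc25a28 averaged 15.9 ± 1.87 CPM with water and 21.4 ± 1.97 with NMN in the 1340 mg/kg/d livers. In the 2680 mg/kg/d livers it averaged 21.9 ± 0.0529 and 24.0 ± 2.22 CPM. Among the other 9 iron genes Tfr2 was nearest (r = 0.667) and Hamp2 farthest in the other direction (r = -0.485).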

How the data were processed

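Per the labels and the article's methods, polyA RNA was aligned with STAR and counted per gene with HTSeq-count, ignoring strand. The authors deposited whole-number counts without normalization or filtering. The genome name that the article gives matches no known build, so coordinates come from GENCODE M21. Of 54446 identifiers, 53229 matched it with the same version, 1180 with another and 37 not at all. Rows naming no gene held 18.6% to 29.3% of reads and were left out.

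The tests used edgeR 4.0.16 in R 4.3.3, with filterByExpr, TMM, the robust quasi-likelihood test, Benjamini-Hochberg adjustment over all genes tested and a threshold of 0.05. Each comparison was fitted on its own libraries. An SE is the size of the log2 fold change over the root of the F statistic, and a 95% interval is the normal one from it. Depth bears on counting error alone, since reads carried no molecular identifiers. The smallest chi-square per gene between replicates was 6.67, so no library was a repeat of another. The scripts were tested on simulated data.

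The 10 genes, the lists and the rule for named genes were chosen with earlier results of these data known. Beside the 10, the text names list genes past the threshold in the tested comparisons, at most 4 per list and comparison, 15 genes of known roles, and the 5 genes most correlated with Scara5. Colec12, Epb42, Id1, Flvcr1, Slc25a37, the values of Slc25a28, the kidney values of Slc39a14 and the marker genes Ttr and Miox were added to the text with their values known.

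Alternatives were DESeq2 1.42.0, its size factors in edgeR, no filter, a minimum of 10 counts per library, no robust option, a replicate block, 1 fit per organ, a stricter threshold, and each library left out. Kidney counts thinned to the smallest library were added after seeing the data.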

Additional observations from a re-analysis of the deposited data

Results flagged for a closer look

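Of 40 sets of 4 libraries tested for a library far from the other 3, 3 had one, and chance gives about 1 in 20. This check looks within a group and does not compare NMN with water. Scara5 was chosen from the 1340 mg/kg/d livers, so nothing is read from its flag. It was at 7.981 CPM in water replicate 1 of these livers and between 3.779 and 4.393 in the others. Slc11a2 was at 43.7 CPM in the same library and between 18.56 and 22.03 in the others. Hamp was at 2.938 CPM in NMN replicate 1 of the 1340 mg/kg/d kidneys and between 1.353 and 1.542 in the others.

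Slc46a1 differed between liver and kidney in its NMN effect at 2680 mg/kg/d, by -0.854609 on the log2 scale (edgeR interaction, adjusted p = 0.04027). Of all genes, 2.65% passed this test. The call was lost without single libraries, with an adjusted p of up to 0.111.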

How the results depend on the processing

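Over all genes, the counts of calls moved widely with the processing. With DESeq2 the calls were 74 (edgeR 2) in the 1340 mg/kg/d livers, 1450 (883) in the 2680 mg/kg/d livers, 159 (18) and 236 (61) in the kidneys, 1234 (419) for the organ interaction and 10 (1) for the kidney schedule interaction. With no filter they were 44, 1785, 269, 514, 1307 and 106. With an adjusted p under 0.01 and a fold over 2 they were 0, 135, 2, 3, 60 and 0, and 6474 (10464) between organs in water mice. Without the robust option the 1340 mg/kg/d kidneys had 5 and the schedule interaction 0, which also had 0 with at least 10 counts per library. With 1 fit per organ the 1340 mg/kg/d livers had 6 and the 2680 mg/kg/d kidneys 35. Leaving out 1 library gave 0 to 18, 211 to 1308, 5 to 67, 3 to 191, 118 to 1347, 0 to 1 and, between organs, 9548 to 10945 calls.

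Over the 3 tested comparisons the 10 genes gave 1 call, against 3 with DESeq2, 4 with no filter (Hamp2, Tfrc, and Ftl1 in both kidney comparisons), 2 without the robust option and 0 with 1 fit per organ, where Hamp2 in the 2680 mg/kg/d livers had -1.20 (adjusted p = 0.09613). Tfrc in those livers passed with DESeq2 (1.46), with no filter (1.45, adjusted p = 0.0007202) and without the robust option (1.45, adjusted p = 0.04314). Leaving out 1 library gave 1.19 to 2.07, with an adjusted p of up to 0.2134. No called value changed sign.

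The replicate numbers were not used to pair libraries in the main fits, since no label says what they stand for. The deviations of same-numbered libraries correlated between -0.117 and 0.206, and such correlations cannot decide whether a number marks a shared batch. In the 2680 mg/kg/d livers alone every library correlated best with its own number. With the replicate block the calls were 16, 75 and 92 in the 1340 mg/kg/d livers and the kidneys, 2 for the schedule interaction and 2 among the 10 genes, with Tfrc at 1.56 (adjusted p = 0.03354).

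Scaling by DESeq2's size factors shifted the median by at most 0.0172. Scara5 rested on 24 to 84 reads per kidney library.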

Other observations

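Among the water libraries, replicate 1 had the highest level of its group in all 4 water groups for Scara5, Tfrc and Ftl1, a pattern seen after the values were known, and 4.72% of all 11462 genes tested in the 4 comparisons did the same. It was the highest in 3 of 4 groups for Fth1 and Slc11a2. It was the highest in 1 group for Hamp2 and Trf and in none for Hamp, Tfr2 and Slc40a1. In size the gaps differed. In the 1340 mg/kg/d livers that library held Tfrc at 34.9 CPM (others 10.5 to 20.7) and Slc40a1 at 44.8 CPM (others 90.2 to 165.4), whereas in the 2680 mg/kg/d kidneys it held Scara5 at 2.26 CPM (others 2.11 and 2.16). What the numbers stand for, and whether liver and kidney libraries with 1 number share a mouse, is not given in the sources used here.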
